A study of Mus musculus with 30 samples.

Results

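In mouse liver, 9 genes that respond to Wnt signals or mark the hepatocytes around the central vein were examined. They are Axin2, Notum, Rnf43, Znrf3, Lgr5, Tbx3, Glul, Oat and Slc1a2. They were chosen by name as known Wnt targets and pericentral genes, with earlier results of these data known. They are 9 of the 29117 genes in the deposited table. All 9 passed the filter on low values, with no missing value, and so belong to the 13589 genes tested. The tested animals were C57BL/6J mice, 10 weeks old, that received human insulin at 0.7 U/kg into the peritoneum, and the controls were C57BL/6J mice of the same age that received phosphate-buffered saline (PBS). All mice of both groups had been fasted for 12 to 16 h, and all libraries came from the left liver lobe. Each treatment had 15 libraries, 3 at each of 5 sampling points, which makes 10 groups and 30 libraries. The labels number the points 1 to 5 without minutes, so points are named by number and no spacing in time is assumed.

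Wnt ligands bind Frizzled and LRP receptors on hepatocytes, which spares beta-catenin from a destruction complex and lets it switch on genes together with TCF and LEF factors. R-spondins strengthen the signal through LGR receptors by removing the ubiquitin ligases RNF43 and ZNRF3, which otherwise take Frizzled off the cell surface. In the liver, endothelial cells of the central vein are a known source of these ligands, and the hepatocytes beside it carry a Wnt-dependent programme of glutamine synthesis, ammonia capture and drug metabolism.

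On GRCm38, in the GENCODE M21 annotation, Axin2 lies on chromosome 11 from 108920349 to 108950783, Rnf43 from 87662722 to 87735539, Znrf3 from 5276324 to 5444847 and Notum from 120653788 to 120661175 on that chromosome. Lgr5 lies on chromosome 10 from 115450311 to 115587780 and Tbx3 on chromosome 5 from 119670669 to 119684724. Glul lies on chromosome 1 from 153899944 to 153909723, Oat on chromosome 7 from 132557478 to 132576398 and Slc1a2 on chromosome 2 from 102658659 to 102790784. All 9 are protein-coding, and each value covers the whole gene. Notum overlaps the antisense gene Notumos, which averaged 0.481 FPKM, and Rnf43 overlaps 1110028F11Rik, at 0.476 FPKM.

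Values are FPKM, which divides a gene's fragments by the length of its transcript and by the size of the library. Differences are insulin minus PBS on the log2(FPKM + 1) scale, which understates the change of low genes, with the standard error (SE) of a limma fit over all 30 libraries. A gene was called at a Benjamini-Hochberg adjusted p below 0.05, taken over all genes tested and two-sided. Replicate libraries of a group correlated at 0.966 to 0.983 over the genes tested. Albumin and the other 8 hepatocyte markers in the file together summed to between 39942 and 55988 FPKM in insulin livers and between 45389 and 59208 FPKM in PBS livers. The labels put insulin libraries on lanes 1 and 2 and PBS libraries on lanes 3, 4 and 5, so an effect of the lane and one of insulin cannot be told apart. Insulin replicate 1 was on lane 1 at point 5 and on lane 2 at the other points. Comparisons of point 5 with other points within insulin are thus partly mixed with lane. The median of all genes tested lay below 0 at every point, at -0.06, -0.12, -0.14, -0.14 and -0.17 from point 1 to point 5. Median-ratio scaling of the libraries brought it close to 0, and calls that this scaling ends are named beside each gene. The series describes the 3 replicates of a group as biological. For a comparison at a single point, leaving out a replicate below means leaving out that 1 library of that point. For averages over points, F tests and point 5 minus point 1, it means leaving out that replicate number of a treatment at all 5 points. In whole liver, fewer cells of a type and less RNA per cell cannot be told apart.

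Levels of the 9 genes spanned a wide range. Oat averaged 579 FPKM over all libraries and Glul 357 FPKM, followed by Slc1a2 at 35.4 FPKM. Notum averaged 7.80 FPKM, Tbx3 5.25 FPKM, Rnf43 3.65 FPKM and Znrf3 2.08 FPKM. Axin2 at 1.52 FPKM and Lgr5 at 0.851 FPKM were the lowest, and Lgr5 reached 1 FPKM in 8 of the 30 libraries.

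Promoter sequence is shown for 3 of the genes, because a called and an uncalled gene can be set side by side at the level of the bases. RefSeq promoter windows on GRCm38.p6, from 250 bases before to 50 bases after a RefSeq transcript start, were held for 5 of the 9 genes, in 6 windows since Rnf43 has a pair of starts. The start used for Slc1a2 lies 47779 bases inside the GENCODE gene, downstream of its annotated start, while that of Axin2 is the annotated start and the one of Rnf43 shown lies 365 bases downstream of it. They were searched on both strands for the TCF and LEF motifs CTTTGAT and CTTTGAA and for the FOXO motif GTAAACA. FOXO factors are proteins that insulin signalling keeps out of the nucleus. Capitals mark a match, and a stretch with none is in lower case throughout. Axin2 is at chr11:108920099-108920398 on the plus strand, the upstream start of Rnf43 at chr11:87662837-87663136 on the plus strand, and Slc1a2 at chr2:102706188-102706487 on the plus strand.
Axin2: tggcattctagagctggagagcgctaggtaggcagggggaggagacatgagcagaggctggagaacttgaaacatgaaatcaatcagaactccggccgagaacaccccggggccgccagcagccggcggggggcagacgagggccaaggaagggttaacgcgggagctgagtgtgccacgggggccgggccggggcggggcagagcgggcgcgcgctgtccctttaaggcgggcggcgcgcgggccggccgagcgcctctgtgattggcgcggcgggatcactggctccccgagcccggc
Rnf43: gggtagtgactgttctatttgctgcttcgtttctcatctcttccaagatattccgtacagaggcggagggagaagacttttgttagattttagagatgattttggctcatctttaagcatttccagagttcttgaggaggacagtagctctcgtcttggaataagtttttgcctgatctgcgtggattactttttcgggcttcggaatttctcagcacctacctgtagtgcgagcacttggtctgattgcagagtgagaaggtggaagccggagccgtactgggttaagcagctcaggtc
Slc1a2: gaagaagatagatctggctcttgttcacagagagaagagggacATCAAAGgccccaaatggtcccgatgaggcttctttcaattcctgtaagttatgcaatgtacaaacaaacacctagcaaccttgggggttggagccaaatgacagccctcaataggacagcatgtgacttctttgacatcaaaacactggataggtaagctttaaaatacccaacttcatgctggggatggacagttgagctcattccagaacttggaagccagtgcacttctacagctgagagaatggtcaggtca
Of the 6 windows, only that of Slc1a2, at its internal start, held a match, an ATCAAAG that reads CTTTGAT on the other strand and starts at position 44 of the window, counted from 1 at its first base. Over all 32851 windows of this length, 3.73% held CTTTGAT, 5.14% held CTTTGAA and 3.65% held GTAAACA. The windows of Axin2, Rnf43, Glul and Oat held none of the 3. The Axin2 window had a GC content of 70.0%, against 46.7% for the one of Rnf43 shown and 45.7% for Slc1a2. Notum, Lgr5, Tbx3 and Znrf3 were not analysed here for promoter sequence.

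Insulin livers had lower levels of the feedback inhibitors Notum and Rnf43 at points 3, 4 and 5, of Tbx3 and Glul at points 3 and 4, of Axin2 at point 4 and of Lgr5 at point 5. None of the 9 genes was called higher at a point, where the share of all genes called higher was 0%, 0.618%, 2.19%, 2.82% and 2.96% from point 1 to point 5. None of the 9 was called by limma at points 1 and 2, where 1 and 4 of them had an unadjusted p below 0.05. Of the 4 at point 2, Znrf3 leaned higher in insulin livers and the others lower. Called lower were 4 of the 9 at point 3, 5 at point 4 and 3 at point 5. Over all genes tested, the share called lower was 0.00736%, 0.736%, 7.26%, 10.4% and 16.1% from point 1 to point 5. In the average over the 5 points 6 of the 9 were called lower, while 37.6% of all genes tested were called lower and 7.89% higher. All 3 insulin libraries lay below all 3 PBS libraries for 2, 3, 5, 6 and 4 of the 9 genes from point 1 to point 5. The share of all genes with this order was 6.44%, 18.6%, 27.8%, 24.3% and 29% from point 1 to point 5. The median difference of the 9 genes was -0.18, -0.26, -0.44, -0.45 and -0.04 from point 1 to point 5, beside the medians of all genes given above. With median-ratio scaling 3, 4 and 2 of the 9 were called lower at points 3, 4 and 5 and 4 in the average, and none was called higher. With lane as a random effect, at a fitted correlation within lanes of 0.026, no call between treatments changed. No lane held both treatments, so this fit cannot part lane from treatment.

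**Figure D1:**
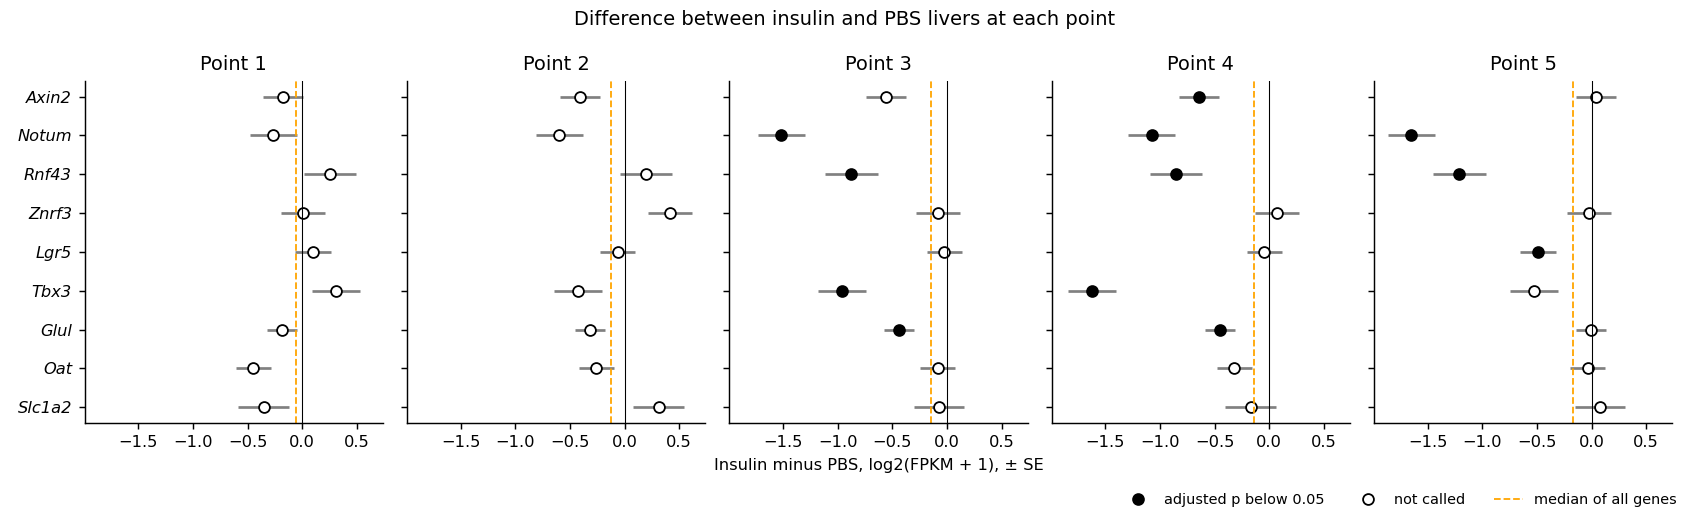
Insulin minus PBS on the log2(FPKM + 1) scale for each of the 9 genes, 1 panel per sampling point, with bars for 1 SE of the fit over 30 libraries. Filled points passed the adjusted p of 0.05 and the dashed line is the median of all genes tested. Notum lay at -1.52, -1.08 and -1.65 at points 3, 4 and 5, and Znrf3 stayed within 0.42 of 0 at every point.

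Among the feedback inhibitors, Notum and Rnf43 were each called at points 3, 4 and 5. Notum is a secreted enzyme that removes the lipid from Wnt ligands and so inactivates them. At point 3 Notum was at 3.05, 5.34 and 2.39 FPKM in insulin livers, against 14.2, 12.8 and 8.62 FPKM in PBS livers. At point 4 it was at 5.70, 5.31 and 6.25 FPKM in insulin livers, against 12.1, 12.3 and 15.4 FPKM in PBS livers. At point 5 it was at 3.00, 4.95 and 3.41 FPKM in insulin livers, against 15.0, 13.0 and 13.5 FPKM in PBS livers. The groups did not overlap at any of the 3 points, and every insulin library was below the lowest PBS library. The insulin mean was 30.2% of the PBS mean at point 3, 43.3% at point 4 and 27.3% at point 5. The differences were -1.52 ± 0.22 (SE, limma adjusted p = 0.000104), -1.08 ± 0.22 (adjusted p = 0.00296) and -1.65 ± 0.22 (adjusted p = 4.50e-05), and all 3 calls held under every alternative run. At point 2 the groups also did not overlap, at 5.02, 5.54 and 4.15 FPKM in insulin livers against 6.52, 8.98 and 8.35 FPKM in PBS livers, but the difference of -0.60 ± 0.22 missed the threshold (adjusted p = 0.155). At point 1 insulin livers had 5.33, 6.10 and 5.71 FPKM and PBS livers 4.64, 8.42 and 8.83 FPKM, which overlap.

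Within PBS livers Notum differed among the points and was higher at point 5 than at point 1. Its mean was 7.30 ± 2.31 FPKM at point 1, followed by 7.95 ± 1.28, 11.9 ± 2.92, 13.3 ± 1.86 and 13.9 ± 1.00 FPKM at points 2 to 5 (SD, n = 3 each). The F test over the points of PBS called Notum (limma adjusted p = 0.0282) and no other of the 9, among 3.27% of all genes. Point 5 minus point 1 was 0.88 ± 0.22 in PBS livers (limma adjusted p = 0.0332), where 1.07% of all genes were called higher. This call was lost without any 1 of the PBS replicates (adjusted p = 0.429 without replicate 1, 0.133 without replicate 2, 0.0613 without replicate 3) and without insulin replicate 1 or 3 (adjusted p = 0.0675 and 0.0514). The F test within PBS was lost in the same 5 cases, with adjusted p = 0.465, 0.135, 0.0698, 0.0729 and 0.0541 in that order. Dropping the filter on low values also ended both calls. Adding 0.1 in place of 1 to the FPKM ended that of point 5 minus point 1. In insulin livers Notum means ran from 3.59 to 5.75 FPKM and the F test did not call it (adjusted p = 0.116).

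Rnf43, the ubiquitin ligase that removes Frizzled, was lower in insulin livers at points 3, 4 and 5. At point 3 it was at 2.48, 1.13 and 2.30 FPKM in insulin livers, against 4.44, 5.04 and 3.60 FPKM in PBS livers. At point 4 it was at 1.54, 2.32 and 2.56 FPKM in insulin livers, against 4.57, 5.36 and 4.01 FPKM in PBS livers. At point 5 it was at 1.44, 1.42 and 1.76 FPKM in insulin livers, against 4.83, 4.35 and 5.45 FPKM in PBS livers. The groups were apart at all 3 points, most widely at point 5, where the insulin mean was 31.5% of the PBS mean. The differences were -0.88 ± 0.24 (limma adjusted p = 0.0255), -0.85 ± 0.24 (adjusted p = 0.0225) and -1.21 ± 0.24 (adjusted p = 0.00184). The point 5 call held under every alternative. The point 3 call was lost without insulin replicate 2 (adjusted p = 0.13), PBS replicate 1 (adjusted p = 0.0673) and also without PBS replicate 2 (adjusted p = 0.0909). Dropping the filter, another scaling (quantile normalization) and a fit of only the 6 libraries of the point each ended it too. The point 4 call was lost without insulin replicate 1 (adjusted p = 0.115) or 2 (adjusted p = 0.0583) and also without PBS replicate 1 (adjusted p = 0.0543) or 2 (adjusted p = 0.0673). Dropping the filter ended this call as well, as did a fit of only the 6 libraries of the point. Within insulin livers Rnf43 was lower at point 5 than at point 1 by -1.09 ± 0.24 (adjusted p = 0.00402), and without insulin replicate 3 this gave adjusted p = 0.0598.

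Znrf3, the close relative of Rnf43 with the same role, was not called in any comparison. It ranged from 1.05 to 2.91 FPKM in insulin livers and from 1.11 to 3.09 FPKM in PBS livers, and the groups overlapped at every point. At point 5, where Rnf43 differed most, Znrf3 was at 1.47, 2.63 and 1.05 FPKM in insulin livers, against 1.58, 2.54 and 1.11 FPKM in PBS livers. Its difference there was -0.02 ± 0.20, with a 95% interval from -0.44 to 0.39. At point 2 its difference was 0.42 ± 0.20, higher in insulin livers and not called (limma adjusted p = 0.276). Its average difference over the points was 0.08 ± 0.09, with an interval from -0.11 to 0.26. The difference between the responses of the 2 ligases was not tested.

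Axin2 is a scaffold of the destruction complex and a widely used readout of beta-catenin activity. At point 3 it was at 0.794, 0.895 and 0.833 FPKM in insulin livers, against 1.26, 2.12 and 1.84 FPKM in PBS livers. At point 4 it was at 0.637, 0.854 and 0.683 FPKM in insulin livers, against 1.69, 1.93 and 1.47 FPKM in PBS livers. The groups were apart at both points, with the insulin mean at 48.4% and 42.7% of the PBS mean. The difference at point 4 passed the test (-0.64 ± 0.18, limma adjusted p = 0.0246) and that at point 3 missed it (-0.56 ± 0.18, adjusted p = 0.0557). Adding 0.1 in place of 1 to the FPKM, the replicate block given below and leaving out PBS replicate 1 each called point 3. The point 4 call was lost without insulin replicate 1 (adjusted p = 0.0905) or 2 (adjusted p = 0.056) and also without PBS replicate 1 (adjusted p = 0.06) or 2 (adjusted p = 0.0704). Quantile normalization and a fit of only the 6 libraries of the point each ended it too. At point 5 Axin2 was at 1.38, 1.84 and 1.65 FPKM in insulin livers, against 1.39, 1.61 and 1.66 FPKM in PBS livers. The groups overlapped there, with a difference of 0.04 ± 0.18. The average over the points was -0.35 ± 0.08 (adjusted p = 0.00151) and held under every alternative.

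**Figure D2:**
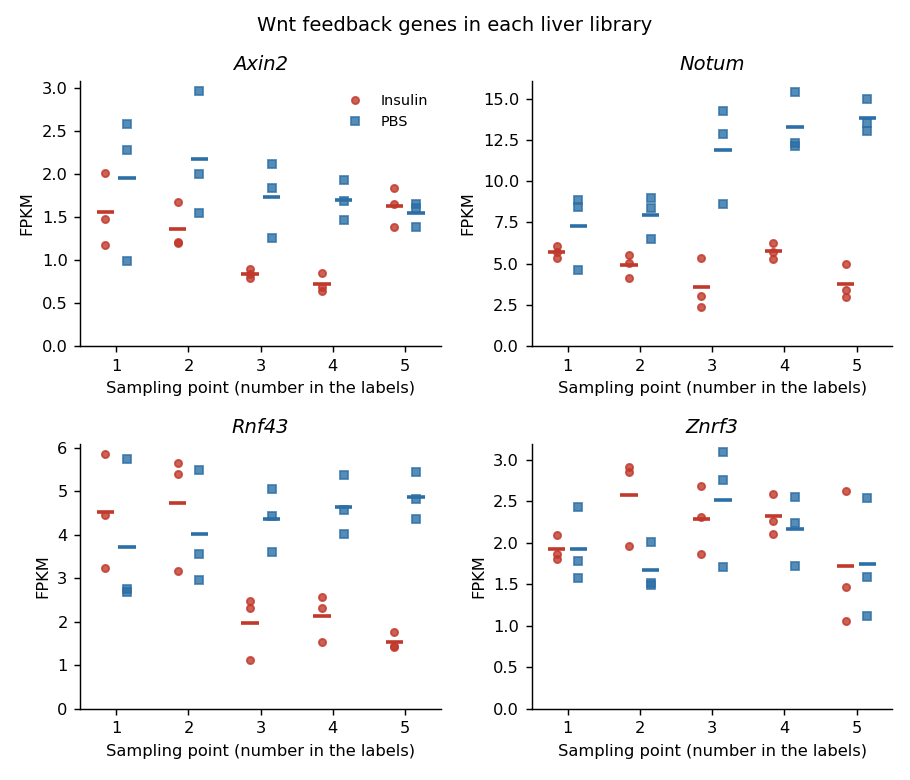
FPKM of the 4 Wnt feedback genes in every library, against the sampling point, with insulin as circles on the left and PBS as squares on the right of each point. Bars are means of 3 libraries. Notum and Rnf43 insulin libraries lay below every PBS library at points 3, 4 and 5, Axin2 at points 3 and 4, and Znrf3 at none.

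Lgr5 is a receptor for R-spondins and marks a narrow ring of hepatocytes at the central vein. Its highest library was at 1.88 FPKM. At point 5 it was at 0.214, 0.339 and 0.629 FPKM in insulin livers, against 0.707, 1.05 and 1.10 FPKM in PBS livers. The groups were narrowly apart, and the insulin mean was 41.3% of the PBS mean. The difference of -0.49 ± 0.16 passed the test (limma adjusted p = 0.0357) but not with median-ratio scaling (adjusted p = 0.0722). It was also lost without insulin replicate 1 (adjusted p = 0.161) or 2 (adjusted p = 0.0772) and also without PBS replicate 2 (adjusted p = 0.0972) or 3 (adjusted p = 0.125). Dropping the filter, quantile normalization and a fit of only the 6 libraries of the point each ended this call as well. At points 1 to 4 the groups overlapped. Within insulin livers Lgr5 was lower at point 5 than at point 1 by -0.71 ± 0.16 (adjusted p = 0.00573), and without insulin replicate 2 this gave adjusted p = 0.119. Within PBS livers the same difference was -0.12 ± 0.16 (adjusted p = 0.848).

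Tbx3, a T-box repressor found in pericentral hepatocytes, had the lowest insulin to PBS ratio of the 9 genes at a single point. At point 4 it was at 1.30, 2.63 and 1.60 FPKM in insulin livers, against 7.50, 8.88 and 6.57 FPKM in PBS livers. The groups were far apart, with the insulin mean at 24.1% of the PBS mean, and the difference of -1.63 ± 0.22 (limma adjusted p = 7.73e-05) held under every alternative. At point 3 it was at 1.498, 2.92 and 2.59 FPKM in insulin livers, against 5.54, 5.49 and 5.05 FPKM in PBS livers. The groups were apart there too, by -0.96 ± 0.22 (adjusted p = 0.00918), a call lost only without insulin replicate 1 (adjusted p = 0.0579). At point 5 it was at 4.57, 4.35 and 4.12 FPKM in insulin livers, against 5.15, 7.93 and 7.37 FPKM in PBS livers. These groups did not overlap, and the difference of -0.53 ± 0.22 missed the threshold (adjusted p = 0.0919).

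At the first point Tbx3 stood the other way without passing the test. It was at 5.12, 9.95 and 8.45 FPKM in insulin livers, against 3.91, 7.88 and 6.61 FPKM in PBS livers, a difference of 0.31 ± 0.22 (adjusted p = 0.745). Within insulin livers the F test over points called Tbx3 (limma adjusted p = 6.07e-05) and held under every alternative. Its insulin means were 7.84 ± 2.47 FPKM at point 1, followed by 4.19 ± 0.252, 2.34 ± 0.745, 1.84 ± 0.697 and 4.35 ± 0.222 FPKM at points 2 to 5 (SD, n = 3 each). The antisense gene Tbx3os1 overlaps Tbx3 and averaged 1.98 FPKM, and the strand setting of the authors' quantification is not given in the sources used here.

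Glul, glutamine synthetase, is the classical marker of the hepatocytes next to the central vein and joins ammonia to glutamate. At point 3 it was at 293, 308 and 325 FPKM in insulin livers, against 400.0, 419 and 436 FPKM in PBS livers. At point 4 it was at 309, 316 and 384 FPKM in insulin livers, against 460, 441 and 470 FPKM in PBS livers. The groups were apart at points 1 to 4 and overlapped at point 5, where insulin livers had 345, 371 and 383 FPKM and PBS livers 450, 268 and 415 FPKM. The differences at points 3 and 4 were -0.44 ± 0.14 (limma adjusted p = 0.0456) and -0.45 ± 0.14 (adjusted p = 0.0338), and the insulin means were 73.8% and 73.6% of the PBS means. Median-ratio scaling ended both calls (adjusted p = 0.225 and 0.169) and that of the average (-0.28 ± 0.06, adjusted p = 0.000782, against adjusted p = 0.113 scaled). Quantile normalization ended the same calls, and dropping the filter ended those at points 3 and 4. A fit of only the 6 libraries of the point ended the call at point 4. The point 3 call was lost whichever replicate of either treatment was left out, with adjusted p = 0.13, 0.106 and 0.0681 without insulin replicates 1, 2 and 3 and 0.0799, 0.103 and 0.136 without PBS replicates 1, 2 and 3. The point 4 call was lost without insulin replicate 1 or 2 (adjusted p = 0.134 and 0.122) and without PBS replicate 1, 2 or 3 (adjusted p = 0.0782, 0.0523 and 0.109). Glul has a processed pseudogene, Glns-ps1, that averaged 34.7 FPKM, and reads could be shared between them, so the level of Glul is uncertain. With both summed the differences were -0.44 (adjusted p = 0.0441) at point 3 and -0.45 (adjusted p = 0.0334) at point 4.

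Oat, ornithine aminotransferase, links ornithine to glutamate and proline. At point 1 it was at 442, 676 and 432 FPKM in insulin livers, against 692, 701 and 678 FPKM in PBS livers. The highest insulin library stood just below the lowest PBS library, and the difference of -0.45 ± 0.16 was not called (limma adjusted p = 0.561). It was called only in the average over the points (-0.23 ± 0.07, adjusted p = 0.0109), which median-ratio scaling ended (adjusted p = 0.45), as did leaving out insulin replicate 1 (adjusted p = 0.0673). Quantile normalization ended the call of the average as well. Within insulin livers Oat varied among points (adjusted p = 0.0386), with its highest mean at point 5, and this was lost without insulin replicate 1 or 3 (adjusted p = 0.185 and 0.285) and also without PBS replicate 1 (adjusted p = 0.0782). Dropping the filter also ended this variation call. In PBS livers the mean of Oat was highest at point 5 too, at 737 FPKM, against 711 FPKM in insulin livers. The F test within PBS did not call Oat (limma adjusted p = 0.312), nor did that of dependence on the point (adjusted p = 0.818). In the annotation Oat lies inside the long span given to Fgfr2 on the same strand, which averaged 7.73 FPKM.

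Slc1a2, a glutamate transporter of pericentral hepatocytes, was not called between treatments at any point. It ranged from 15.8 to 54.2 FPKM in insulin livers and from 19.8 to 48.4 FPKM in PBS livers, with overlap at every point. Its average difference was -0.04 ± 0.10, with a 95% interval from -0.26 to 0.17. Within insulin livers it was higher at point 5, at 49.2, 35.4 and 40.3 FPKM, than at point 1, at 15.8, 31.3 and 25.0 FPKM. That difference was 0.81 ± 0.23 (limma adjusted p = 0.0272), and without insulin replicate 1 or 3 it gave adjusted p = 0.318 and 0.0907. Its call was lost without the filter as well. Within PBS livers the same difference was 0.38 ± 0.23 (adjusted p = 0.549). With median-ratio scaling, Glul (0.44, adjusted p = 0.0351) and Oat (0.59, adjusted p = 0.0158) were also called higher at point 5 than at point 1 in insulin livers. Over all genes, 3.51% were called higher and 6.09% lower at point 5 than at point 1 in insulin livers, where Slc1a2 was called higher and Rnf43, Lgr5 and Tbx3 lower. For Tbx3 this difference was -0.68 ± 0.22 (adjusted p = 0.04995), and it was lost without insulin replicate 2 or 3 (adjusted p = 0.293 and 0.345) and also without PBS replicate 2 or 3 (adjusted p = 0.0653 and 0.0831). Dropping the filter, or adding 0.1 in place of 1 to the FPKM, ended this call too.

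**Figure D3:**
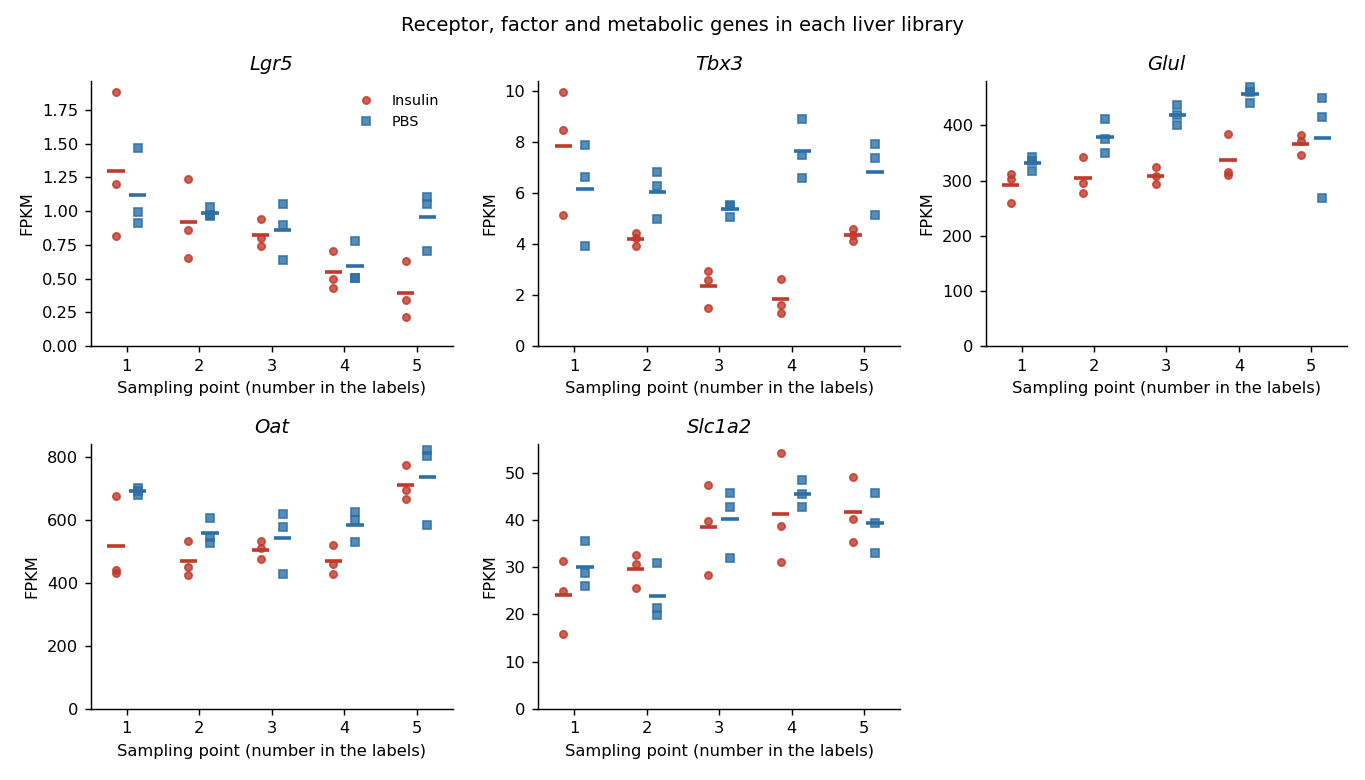
FPKM of Lgr5, Tbx3, Glul, Oat and Slc1a2 in every library, against the sampling point, with insulin as circles on the left and PBS as squares on the right of each point. Bars are means of 3 libraries. Tbx3 in insulin livers had its lowest mean, 1.84 FPKM, at point 4, while Slc1a2 overlapped between treatments at every point.

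The size of the difference changed with the point for 3 of the 9 genes, by an F test that 1.77% of all genes passed. These were Tbx3 (limma adjusted p = 0.00747), Rnf43 (adjusted p = 0.0298) and Notum (adjusted p = 0.0328). Within insulin livers the F test called 4, Tbx3, Rnf43, Lgr5 and Oat, among 13.3% of all genes, and median-ratio scaling added Axin2 (adjusted p = 0.0135) and Slc1a2 (adjusted p = 0.0152). The dependence of Tbx3 was lost when insulin replicate 3 was left out (adjusted p = 0.118), and likewise for PBS replicate 1 (adjusted p = 0.0932). That of Rnf43 was lost without insulin replicates 1, 2 or 3 (adjusted p = 0.0837, 0.193 and 0.0586) and PBS replicates 1 or 3 (adjusted p = 0.324 and 0.224). That of Notum was lost without insulin replicates 1 or 3 (adjusted p = 0.231 and 0.175) and PBS replicates 1 or 2 (adjusted p = 0.331 and 0.113). The dependence of Rnf43 and that of Notum were also lost without the filter. Within insulin livers the Rnf43 call was lost without insulin replicate 2 (adjusted p = 0.0713), and that of Lgr5 without insulin replicate 1, 2 or 3 (adjusted p = 0.0779, 0.287 and 0.066) and also without PBS replicate 2 (adjusted p = 0.0518). Quantile normalization also ended that call of Lgr5. The relation between the members across libraries was computed for all 36 pairs on deviations from the group means. None passed the permutation test after adjustment. The closest pair was Axin2 and Tbx3, with Pearson r = 0.57 (permutation p = 0.0106, adjusted 0.382) and Spearman rho = 0.53 (permutation p = 0.00973, adjusted 0.35). Without the 2 libraries farthest from the median of Axin2 r was 0.49, and it was 0.44 within insulin and 0.71 within PBS livers.

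The genes most alike each member over the 30 libraries are given as a description, by Pearson r of log2(FPKM + 1). Notum was most like Rxra (r = 0.915) and Foxk1 (r = 0.913). Tbx3 was most like Arap1 (r = 0.88) and Eepd1 (r = 0.854), and Rnf43 most like Gna12 (r = 0.823) and Myorg (r = 0.819). Axin2 was most like Tnfaip8l1 (r = 0.82) and Tmem223 (r = 0.786), and Lgr5 most like Micu2 (r = 0.787) and Syne1 (r = 0.77). Glul was most like its pseudogene Glns-ps1 (r = 0.914) and then Psmb5 (r = 0.784). Oat was most like Smpd3 (r = 0.791) and Il17rb (r = 0.754), Slc1a2 most like Cyp2a5 (r = 0.786) and Iqgap2 (r = 0.775), and Znrf3 most like Tamm41 (r = 0.617) and Fam107b (r = 0.614). These libraries share treatment, point and lane.

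Upstream of the members, the calls can be read beside the shares of all genes given above. Of the Wnt ligands, R-spondins and their secretion factor, 5 were tested, and Wnt5b was the only one called, lower in insulin livers by -0.80 ± 0.19 at point 3, -0.87 ± 0.19 at point 4 and -1.28 ± 0.19 at point 5 (limma adjusted p = 0.01, 0.00485 and 0.000137). The central vein ligand Wnt2 averaged 1.53 FPKM over all libraries and Rspo3 1.58 FPKM, and neither was called at any point. Wnt9b averaged 0.258 FPKM and did not pass the filter. Of the 10 receptors tested, Fzd4, a Frizzled receptor, was lower at points 3, 4 and 5 (-0.50, -0.58 and -0.55, each ± 0.14). Lgr4, the R-spondin receptor related to Lgr5, was higher at point 3 by 0.51 ± 0.12 (adjusted p = 0.00944). Fzd1 and Fzd8 were lower at point 5, which made 3 of 10 receptors there. In the average over the points 4 of the 10 were lower and 1, Lgr4, higher. Median-ratio scaling ended the calls of Fzd4 at points 3 and 5 and of Fzd1 at point 5, and called Lgr4 higher at points 4 and 5 as well. With it 2 of the 10 were higher and 1 lower at point 5, and 2 higher and 3 lower in the average. Fzd4 was no longer called in that scaled average (limma adjusted p = 0.125). Of the secreted and membrane inhibitors, Kremen1 was the 1 tested, and it was lower in the average over the points by -0.31 ± 0.07 (adjusted p = 0.000652).

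Inside the cell, 16 genes of the destruction complex and its partners were tested, and 3 were called at point 4. Apc, a scaffold of the complex, was higher by 0.67 ± 0.14 (limma adjusted p = 0.00489) and Gsk3b, the kinase of the complex, by 0.68 ± 0.15 (adjusted p = 0.00673). Btrc, the ubiquitin ligase subunit that marks beta-catenin, was lower by -0.87 ± 0.21 (adjusted p = 0.0108). Csnk1d was lower at point 3, and Dvl1 and Amer1 at point 5, and none of these 3 was called lower with median-ratio scaling. With that scaling 2 of the 16 were higher and 0 lower at point 3, 4 higher and 1 lower at point 4, and 1 higher and 0 lower at point 5. Of 14 transcription factors and coregulators, limma called none at points 1 to 4, with 2, 2, 3 and 2 at an unadjusted p below 0.05 there. At point 5 it called 5 lower, namely Tcf7l2, Bcl9l, Tle2, Tle3 and Ctnnbip1, and scaling ended the calls of Tle2 and Tle3. Bcl9l, a coactivator of beta-catenin, differed by -1.20 ± 0.21 (adjusted p = 0.000664). Tcf7l2, a partner of beta-catenin on DNA, differed by -0.67 ± 0.17 (adjusted p = 0.00982).

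Other Wnt targets and zonal genes held called genes in both directions. Of 7 other Wnt targets tested, Myc was higher in insulin livers at points 2 and 4 (1.21 ± 0.24 at point 4, limma adjusted p = 0.00236). Nkd1, a feedback inhibitor, was lower at points 3 and 5, and Prox1, a hepatocyte factor, at points 4 and 5 (-0.71 ± 0.14 and -0.93 ± 0.14, adjusted p = 0.00278 and 0.000189). Cd44 and Sox9 were lower at point 4 and Ccnd1 at point 5. Scaling ended the calls of Nkd1 at point 3, Cd44 and Ccnd1. Of 24 other pericentral genes, 1 was higher and 1 lower at point 3, 1 higher and 2 lower at point 4, and 2 higher and 1 lower at point 5. With median-ratio scaling these counts were 1 and 1, 3 and 2, and 4 and 0. Nr1i3, the nuclear receptor CAR, was lower at points 3 and 4 (-0.99 ± 0.19 and -0.72 ± 0.19) and Cldn2 at point 4, while Cyp2c29 was higher at point 4 and Slc22a3 at points 3 and 5. The pericentral enzyme Cyp2e1 was not called at any point. The median of the 24 was -0.11, 0.12 and -0.05 at points 3, 4 and 5. Of 24 periportal genes, 1 was higher at point 3, 3 were higher and 5 lower at point 4, and 3 were higher and 8 lower at point 5, with medians of -0.13, -0.19 and -0.30. With scaling 1 was higher and 0 lower at point 3, 3 higher and 3 lower at point 4, and 4 higher and 6 lower at point 5.

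**Figure D4:**
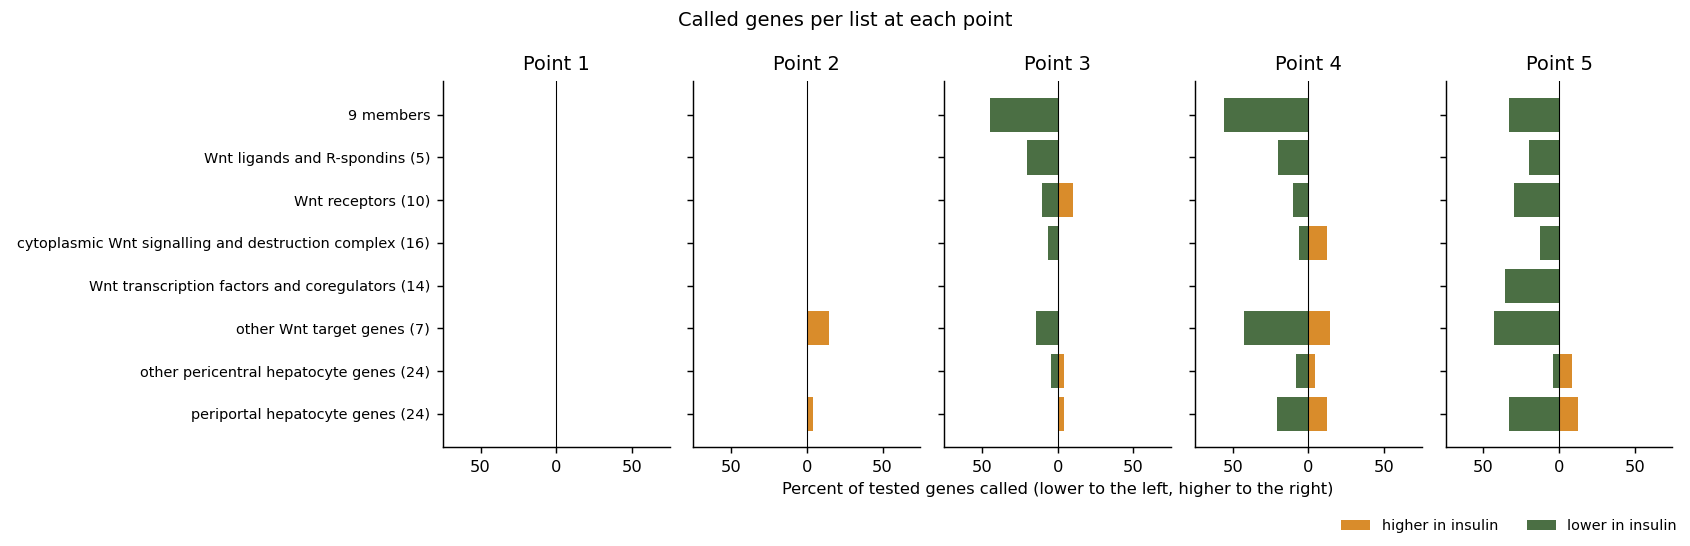
Share of tested genes called higher (to the right) or lower (to the left) in insulin than in PBS livers, as percent of the genes tested, for the 9 genes and 7 lists, 1 panel per sampling point. Numbers in brackets are the genes tested. Of the 9 genes 4, 5 and 3 were called lower at points 3, 4 and 5 and none higher, beside 2.19%, 2.82% and 2.96% of all genes called higher, and the difference between lists was not tested.

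Around Glul and Oat, 20 genes of glutamine, ornithine and proline metabolism were tested, and 3 were higher and 3 lower at point 3, 4 higher and 2 lower at point 4, and 3 higher and 7 lower at point 5. With median-ratio scaling these became 5 higher and 1 lower, 5 and 2, and 4 and 6. Slc25a15, the mitochondrial ornithine carrier, was higher at points 3, 4 and 5 by 0.91, 0.84 and 0.85, each ± 0.11. Slc38a2, a glutamine transporter of the cell membrane, was higher at points 2, 3 and 4 by 1.41, 1.60 and 1.09, each ± 0.25. Slc38a3, a glutamine transporter of hepatocytes, was lower at points 4 and 5 by -0.58 and -0.79, each ± 0.15. Prodh2 was lower at points 3 and 5 by -0.53 and -0.79, each ± 0.15.

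Markers of other liver cells were read beside the shares of all genes called lower, 7.26%, 10.4% and 16.1% at points 3, 4 and 5. Of 18 endothelial markers tested, Thbd was higher at points 3, 4 and 5, 3 were lower at point 3, 3 at point 4 and 7 at point 5. The summed level of the 20 endothelial markers in the file was 77.6 to 92.4 FPKM in insulin livers at point 5, against 108 to 115 FPKM in PBS livers. At point 4 it was 89.1 to 109 FPKM in insulin livers and 113 to 137 FPKM in PBS livers. Of 10 Kupffer cell markers, 6 were lower at point 4 and 2 at point 5, with sums of 113 to 146 FPKM in insulin livers and 172 to 343 FPKM in PBS livers at point 4. The PBS mean there was 237 FPKM, against 167, 160, 183 and 139 FPKM at points 1, 2, 3 and 5. The part of the highest PBS library in these calls was not tested. Of 13 stellate markers 1 was lower at each of points 3, 4 and 5, and of 3 cholangiocyte markers Sox9 was lower at point 4. Of the 13 mitochondrially encoded mRNAs limma called none at points 1 to 5, and 0, 0, 2, 0 and 0 had an unadjusted p below 0.05 there. Of the 9 hepatocyte markers limma called none at points 1 to 4, where 0, 4, 3 and 4 had an unadjusted p below 0.05, and Apoc3 was lower at point 5. With median-ratio scaling 1 endothelial marker was lower at each of points 3, 4 and 5, and 4 and 0 Kupffer markers at points 4 and 5. The part of these cells in the results on the 9 genes was not tested.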

How the data were processed

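Poly(A) RNA of the left liver lobe was sequenced in 30 libraries, 3 for each of 2 treatments at 5 sampling points, per the labels' protocols. The deposited table holds FPKM per gene, which the authors computed from the reads. The submitters' processing notes name HISAT2 2.1.0, SAMtools 1.9, StringTie 2.0.3 and the build GRCm38 (mm10). Neither the annotation nor the strand setting is stated in the sources used. The table has 29117 genes, and 32.2% of its cells are empty and were taken as 0 FPKM.

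Genes with at least 1 FPKM in 3 or more libraries were kept, which left 13589. Values were log2(FPKM + 1). The means of 10 groups were estimated by limma 3.58.1 under R 4.3.3, with a trend of the variance on mean level, leaving 20 residual degrees of freedom. The comparisons were insulin minus PBS at each point and averaged, F tests of its dependence on the point and of variation within each treatment, and point 5 minus point 1 within each. Benjamini-Hochberg adjustment ran over all genes tested, at 0.05. Pairs of members were tested with 100000 permutations within groups. Python 3.11.15, numpy 2.4.6, pandas 2.3.3, scipy 1.17.1 and matplotlib 3.10.9 were used, and the fit was tested on simulated data. Alternatives covered the pseudocount, the filter, the scaling, the libraries in the fit, the replicate block, the lane and each left-out replicate, and the sum of Glul and its pseudogene was added after seeing the data.

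The members and gene lists were chosen with earlier results of these data known. Named besides the 9 members were up to 4 genes a list with the smallest adjusted p, list genes that were called, and the 2 genes most like each member. Wnt2, Rspo3, Wnt9b and Cyp2e1 were named for their known roles after their values were seen. Listed genes outside the table were not analysed here.

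Sequencing depth is not stated, and no read counts could be recovered from the FPKM values, so no interval or floor from counts is given. Depth was estimated in 3 ways, in this order. The best share of whole reads gave 30.9 to 70.0 M reads per library, and 70.0 M was the upper end of the search, so this way may have stopped at its limit. The largest pile of values at 1 read gave 20.7 to 42.2 M, and that followed by the best share nearby gave 19.9 to 41.0 M. The other 2 ways were written after the result of the first was seen and with an earlier range for these libraries known, so their agreement with each other is no check. With a tolerance of 0.05 reads, at most 49.5% of values came out whole in any library, where chance gives 10.0%, and no result uses these estimates.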

Additional observations from a re-analysis of the deposited data

Results flagged for a closer look

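The insulin minus PBS difference changed among the 5 points for 3 of the 9 genes, by the F test of the difference itself in limma. For Tbx3 the adjusted p was 0.00747, with differences from 0.31 at point 1 to -1.63 at point 4. For Rnf43 it was 0.0298, with differences from 0.25 at point 1 to -1.21 at point 5. For Notum it was 0.0328, with differences from -0.26 at point 1 to -1.65 at point 5. An effect of lane and one of treatment cannot be told apart here.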

How the results depend on the processing

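The calls of Notum at points 3, 4 and 5, Tbx3 at point 4, Rnf43 at point 5 and the averages of Axin2, Notum, Rnf43 and Tbx3 held under every alternative run, as did the F test of Tbx3 within insulin. Over all members, 309 alternatives of called results kept the call and 97 lost it, while 874 of uncalled results stayed uncalled and 19 became called. No called difference changed sign, and 54 of 652 alternatives of uncalled differences did, with a size of at most 0.21 and a lowest adjusted p of 0.291. Sign changes of uncalled differences are given by that count alone.

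Without the filter, 2 members were called at point 3, 3 at point 4, 1 in the dependence on the point, 0 in the variation within PBS, 2 in point 5 minus point 1 within insulin and 0 within PBS. Pseudocount 0.1 gave 0 in point 5 minus point 1 within PBS. Quantile normalization gave 2 members at point 3 and 3 at point 4, and only the 6 libraries of the point gave 2 at point 4. With a mean of 5 FPKM or more, which 5 members reach, 3 were called at point 4 and 1 at point 5. Leaving out 1 replicate gave 2 to 3 members at point 3, 2 to 5 at point 4, 2 to 4 at point 5, 5 to 6 in the average, 0 to 2 in the dependence, 2 to 4 in the variation within insulin, 0 to 1 within PBS, 1 to 4 in point 5 minus point 1 within insulin and 0 to 1 within PBS. Fewer libraries were fitted there, and the cause was not tested for the others.

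Same-numbered insulin and PBS libraries deviated together in 1 of 15 pairs (correlations -0.11 to 0.12, over 0.1 taken as together), so across treatments they share only a number. Within a treatment the median correlation was 0.0966 for the same number and -0.0835 for others in insulin, and 0.0488 and -0.0176 in PBS, where each number is also 1 lane. In insulin, replicates 2 and 3 each kept 1 lane as well, and replicate 1 changed lane at point 5. The replicate block gives same-numbered libraries of both treatments a shared term, so it fits no known pairing and its added calls are not relied on. With the replicate block 0, 0, 5, 5 and 4 members were called at points 1 to 5, and Axin2 at point 3 (limma adjusted p = 0.0254) and Tbx3 at point 5 (adjusted p = 0.0221) were added. Depth is not known from counts, which limits what can be said of Lgr5 and Axin2, near 1 FPKM.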
